A study of Mus musculus with 16 samples.

Results

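The Wnt ligands, their receptors and co-receptors, the secreted antagonists and the intracellular relay were read on 1-colour oligonucleotide arrays of adult mouse retina and newborn mouse cerebral cortex. Members were the genes whose symbols begin Wnt and a number, Fzd, Sfrp, Dkk and a number, Dvl or Axin, together with Wif1, Frzb, Ctnnb1, Lef1, the Tcf7 genes, Lrp5, Lrp6, the Gsk3 genes and Apc. Probe sets annotated to a single symbol were kept, and a gene with several was read from the one with the highest mean intensity over the 16 arrays. This gave 42 genes out of 8251, held on 52 of 12422 probe sets. Wif1, Tcf7 and Gsk3b are not analysed here.

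The retina groups came from adult C57/B6 mice, as total RNA from a pool of 350 animals, and were hybridised on 5 arrays at the first site and on 3 arrays at a further laboratory, labelled site 2. The cortex groups came from postnatal day 1 mice, as a pool from 19 animals, with the same numbers of arrays. Pool sizes are given for samples of the first site only, and site 2 titles carry the same retina and cortex codes. Sample descriptions call the cortex donors C57/B6, whereas the design text calls them Swiss-Webster. About 10 µg of RNA per array was converted to biotin-labelled cRNA, and the stated aim was to measure how far results vary between replicates and sites. No animal carried a transgene or received a treatment in the labels used here. Because all arrays of a group carried aliquots of 1 pool, every p-value below measures technical spread alone. Organ, age and possibly strain differ together between the tissues and cannot be told apart.

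Wnt proteins are secreted lipid-modified ligands that bind Frizzled receptors together with the co-receptors Lrp5 or Lrp6. Binding recruits Dishevelled, disables the complex of Axin, Apc and Gsk3 that otherwise marks β-catenin for destruction, and lets β-catenin bind Lef1 and Tcf7-family proteins on target genes. Secreted antagonists act outside the cell, the Sfrp proteins and Frzb by binding the ligands and Dkk1 by binding the co-receptors. In the retina the pathway is known for vessel growth through Fzd4 and its ligand norrin, and in the embryonic forebrain for patterning from the cortical hem and for progenitor expansion.

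Intensities below are scaled to an array median of 100, and differences are retina minus cortex of log2(intensity + 16) after centring on the array median, tested with limma and adjusted by Benjamini-Hochberg over all 12422 probe sets at 0.05. Array medians ran from 45.7 to 216 in the deposited intensities, and the cortex array numbered 2 at site 2 was the dimmest, with correlations to the other cortex arrays of its site down to 0.940. The highest of 13 control probe sets, chosen by name and taken to have no added target, is called the control level here. It lay between 12.6 and 37.0 scaled. Of the members, 22 exceeded it on all 16 arrays and 4 (Wnt8a, Wnt11, Lrp5 and Dkk1) on none. A difference that missed the threshold is not shown to be absent, and the number of arrays limits the precision. Rod markers were higher in retina for 5 of 5 genes at both sites, Mueller glia markers for 3 of 4, with sums of 8200.3 to 8573 in retina, against 709.5 to 819 in cortex at the first site, and cortical neuron markers were lower for 3 of 3. Progenitor markers, also brighter in newborn cortex, summed to 1012 to 1202 in retina, against 5905 to 7460.0 in cortex at the first site, with 3 of 4 lower in retina and Pax6 higher. Markers of cells that a dissection can carry along also differed. Pigment epithelium markers were higher in retina for 4 of 4 genes and summed to 744 to 874 in retina, against 109 to 138 in cortex at the first site, and lens markers were higher for 3 of 5 and summed to 1027 to 1160.1 in retina, against 139 to 180.2 in cortex. Meningeal fibroblast and mural markers were lower in retina for 5 of 6 genes and summed to 422 to 533 in retina, against 1789 to 1865 in cortex. At site 2 their sums were 385 to 466 in retina, against 1599.8 to 2989 in cortex. Endothelial markers gave 2 higher and 3 lower of 6 at both sites, choroid plexus markers 3 higher and 1 lower of 4 at the first site and 2 and 1 at site 2, and erythroid markers 3 lower of 3. The part of any of these cells in the results below was not tested, and in such bulk RNA fewer cells of a type and less RNA per cell cannot be told apart.

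Of the 42 members, retina was higher for 6 and lower for 18 at the first site, and higher for 3 and lower for 13 at site 2. Over all probe sets tested, 47.1% were called at the first site, 21.9% higher and 25.2% lower, and 32.5% at site 2, 16.7% higher and 15.9% lower. Of the members, 57.1% were called at the first site and 38.1% were at site 2, with 42.9% and 31.0% lower. Whether these shares depart from those of all probe sets was not tested. The median member difference was -0.21 at the first site, where the median of all probe sets was -0.05, and -0.25 at site 2, where it was -0.02. Frzb and Dkk3 were higher in retina at both sites. Wnt3, Wnt4, Wnt7b, Fzd2, Fzd3, Fzd9, Sfrp1, Sfrp2, Ctnnb1, Lef1 and Tcf7l2 were lower at both. These made up 4.76% and 26.2% of the members, where 14.4% of all probe sets were higher at both sites and 14.1% were lower at both. Dvl1 was called in opposite directions. The tissues' arrays did not overlap for 22 of 42 members at each site, 52.4%, against 38.8% of all probe sets at the first site and 47.5% at site 2. Groups of 3 arrays separate more readily than groups of 5, so the member shares of the sites are not comparable. The site 2 count includes Lrp5, which exceeded the control level on no array. Without centring of the arrays, 6 site 2 calls were left, those of Wnt4, Wnt7a, Wnt7b, Fzd2, Frzb and Dkk3. The other 10 kept their direction, with values such as -1.17 for Lef1, -1.14 for Fzd3, -1.90 for Sfrp2 and -0.89 for Ctnnb1, at adjusted p from 0.062 to 0.91.

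**Figure D1:**
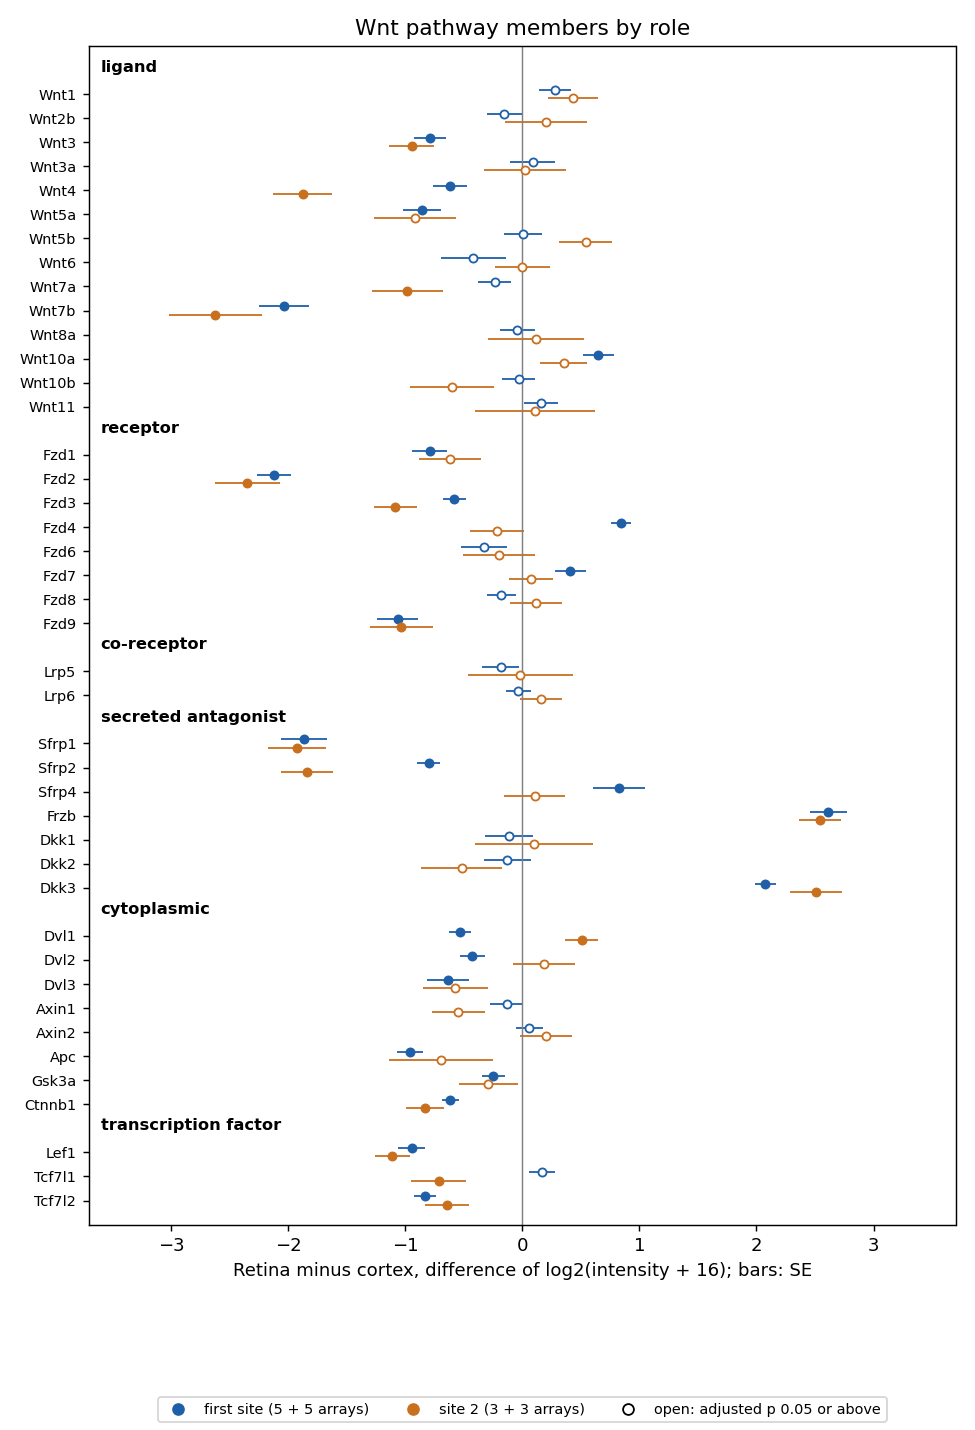
Difference between retina and cortex for the 42 members, grouped by role, on the log2(intensity + 16) scale, with bars for the SE, at the first site (5 arrays per tissue) and at site 2 (3 per tissue). Filled symbols passed the adjusted threshold of 0.05, Frzb and Dkk3 stand farthest to the right, and Wnt7b and Fzd2 farthest to the left.

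Among the 14 ligands, 1 was higher and 4 lower in retina at the first site, and 4 were lower at site 2. Wnt7b, which together with Wnt7a directs the growth of blood vessels into the embryonic brain, had the largest ligand difference at each site. It read 19.2, 13.8, 21.1, 10.5 and 41.97 on the first-site retina arrays, against 107, 131, 139, 88.9 and 173 on the cortex arrays. Wnt7b at site 2 read 19.7, 5.57 and 23.3 in retina, against 240.0, 72.9 and 238 in cortex. Every retina array lay below every cortex array of its site, and only 1 of 5 and 2 of 3 retina arrays exceeded the control level. The log2 difference was -2.04 ± 0.21 (SE, adjusted p 5.5e-07) at the first site and -2.62 ± 0.40 (SE, adjusted p 0.00062) at site 2.

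Wnt3, a ligand of the β-catenin branch, read 40.5, 68.9, 52.1, 62.4 and 62.4 in retina at the first site, against 113, 116, 109.7, 104 and 96.4 in cortex. Site 2 gave 42, 37.5 and 33.95 in retina, against 81.3, 104 and 78.1 in cortex. The tissues again did not overlap, and all 16 arrays were measured above the control level. Its differences were -0.79 ± 0.14 (SE, adjusted p 0.00012) at the first site and -0.94 ± 0.19 (SE, adjusted p 0.0035) at site 2. Wnt4, a ligand best known from kidney and gonad development, read 6.35, 5.98, 5.45, 5.57 and 8.46 in first-site retina, against 13.5, 19.2, 14.2, 18.6 and 17.2 in cortex. No retina array and 1 of 5 cortex arrays exceeded the control level there, so the fitted -0.62 ± 0.14 (SE, adjusted p 0.0018) carries no fold. At site 2 Wnt4 read 7.20, 4.51 and 5.46 in retina, against 75.4, 49.2 and 54.1 in cortex. All 3 cortex arrays were then above the control level and no retina array was, which put retina at least 2.34-fold lower, with a fitted difference of -1.88 ± 0.25 (SE, adjusted p 0.00024). Over the alternatives that difference ran from -3.18 to -1.05, and the first-site one from -1.27 to -0.31.

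Wnt5a, the main ligand of the branches that do not use β-catenin, was lower in retina at the first site, at -0.86 ± 0.16 (SE, adjusted p 0.00028) on the log2 scale and at least 1.14-fold, with 4 of 5 cortex arrays and no retina array above the control level. That difference ran from -1.52 to -0.47 over the alternatives. Wnt5a at site 2 read 16.2, 5.18 and 22.5 in retina, against 66.1, 8.10 and 42.2 in cortex, and the groups overlapped through the dimmest cortex array. The difference was -0.92 ± 0.35 (SE, adjusted p 0.074) with that array and -1.19 ± 0.29 (SE, adjusted p 0.0060) without it. Wnt7a did not pass at the first site, at -0.24 ± 0.14 (SE, adjusted p 0.20), where no array of either tissue exceeded the control level. It was lower at site 2, at -0.98 ± 0.30 (SE, adjusted p 0.030), with 2 of 3 cortex arrays above the control level and a range from -1.90 to -0.46 over the alternatives, but leaving out any array except the dimmest cortex array gave an adjusted p of 0.050 to 0.17.

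Wnt10a, known for its role in teeth and skin appendages, was the 1 ligand higher in retina at the first site. It read 97.2, 95.8, 88.2, 93.8 and 92.1 in retina, against 54.9, 69.9, 61.2, 40.4 and 49.2 in cortex. Site 2 gave 58.4, 58.2 and 51.02 in retina, against 36.4, 42.5 and 41.2 in cortex. Retina exceeded cortex without overlap at both sites, with differences of 0.65 ± 0.13 (SE, adjusted p 0.00061) and 0.35 ± 0.20 (SE, adjusted p 0.24), of which only the first passed. Without the dimmest cortex array the site 2 value was 0.48 ± 0.17 (SE, adjusted p 0.044). Wnt1, the organiser signal of the midbrain and hindbrain border, had the highest mean intensity of the ligand probe sets. It read 89.4, 149.7, 129.8, 144 and 159.6 in first-site retina, against 121, 106, 112, 104 and 89.6 in cortex. Wnt1 at site 2 read 75.6, 109 and 75.2 in retina, against 49.5, 69.2 and 60.7 in cortex. The groups overlapped at the first site and not at site 2, and neither difference passed, at 0.28 ± 0.14 (SE, adjusted p 0.11) and 0.44 ± 0.21 (SE, adjusted p 0.16). Leaving out the dimmest cortex array gave 0.57 ± 0.19 (SE, adjusted p 0.034) at site 2.

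The other 7 ligands, Wnt2b, Wnt3a, Wnt5b, Wnt6, Wnt8a, Wnt10b and Wnt11, passed at neither site. Their differences ran from -0.42 (Wnt6) to 0.16 (Wnt11) at the first site and from -0.60 (Wnt10b) to 0.54 (Wnt5b) at site 2. Wnt8a and Wnt11 exceeded the control level on none of the 16 arrays and Wnt2b on none of the first site, so their differences there carry no fold. Without the dimmest cortex array, Wnt5b gave 0.64 (adjusted p 0.028) and Wnt11 0.59 (adjusted p 0.033) at site 2, both then called, although no Wnt11 value exceeded the control level.

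Of the 8 Frizzled receptors, retina was higher for 2 and lower for 4 at the first site, and lower for 3 at site 2. Fzd2 had the largest difference of the receptors at both sites. It read 20.1, 14.9, 17.1, 18.5 and 8.14 in first-site retina, against 102, 128, 93.4, 128 and 132 in cortex. Fzd2 at site 2 read 18.9, 2.98 and 17.9 in retina, against 143, 93.7 and 133 in cortex. Retina lay below cortex on every array, and at the first site no retina array exceeded the control level, so retina was at least 3.40-fold lower. The fitted differences were -2.12 ± 0.14 (SE, adjusted p 2.4e-09) and -2.35 ± 0.28 (SE, adjusted p 0.00012), with 2 of 3 retina arrays above the control level at site 2, where the difference ran from -3.43 to -1.54 over the alternatives.

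Fzd3, needed for the guidance of forebrain axon tracts in mouse, read 168, 236, 212, 219 and 216 in first-site retina, against 348, 354, 336, 282 and 289.9 in cortex. Fzd3 at site 2 read 136, 117 and 125 in retina, against 244, 414 and 239.8 in cortex. No retina array reached a cortex array of its site, and the differences were -0.58 ± 0.10 (SE, adjusted p 8.2e-05) and -1.08 ± 0.18 (SE, adjusted p 0.0012). A further Fzd3 probe set gave -0.46 ± 0.13 (SE, adjusted p 0.0074) at the first site and -0.77 ± 0.23 (SE, adjusted p 0.028) at site 2. Fzd9 read 47.2, 51.2, 60.99, 32.9 and 79.3 in first-site retina, against 121, 118, 96.4, 159 and 140.2 in cortex. Fzd9 at site 2 read 25.4, 65.1 and 41.5 in retina, against 119, 78.6 and 102 in cortex. Groups did not overlap, and Fzd9 was lower in retina, at -1.07 ± 0.17 (SE, adjusted p 7.3e-05) and -1.03 ± 0.27 (SE, adjusted p 0.013). The site 2 call of Fzd9 was lost (adjusted p 0.053) when the retina array numbered 1 was left out.

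Fzd4, the receptor through which norrin directs retinal vessel growth, had the highest mean of the receptor probe sets. It read 505, 564, 482, 565 and 460.3 in first-site retina, against 292, 289, 272, 246 and 316 in cortex. Fzd4 at site 2 read 269, 275 and 263 in retina, against 214, 507 and 306 in cortex. All first-site retina arrays were above all cortex arrays, whereas at site 2 the 3 retina arrays lay within the cortex range. The difference was 0.84 ± 0.09 (SE, adjusted p 3.8e-07) at the first site and -0.22 ± 0.23 (SE, adjusted p 0.58) at site 2. The other Fzd4 probe sets gave 0.28 ± 0.19 (SE, adjusted p 0.26) and 0.00 ± 0.18 (SE, adjusted p 0.99) at the first site, and the mean over all 3 gave 0.37. At the first site the former exceeded the control level on 1 retina array and no cortex array. The latter exceeded it on no array of either site. Probe sets this dim can neither back nor contradict the Fzd4 difference, and the mean takes them in. Endothelial markers gave 2 higher and 3 lower of 6 in the same arrays, and their part in the Fzd4 difference was not tested.

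Fzd7, a receptor of embryonic progenitors, was higher in retina at the first site by 0.41 ± 0.13 (SE, adjusted p 0.017), a call lost without centring (adjusted p 0.066), and gave 0.07 ± 0.19 (SE, adjusted p 0.89) at site 2. Fzd1 was lower at the first site, at -0.79 ± 0.15 (SE, adjusted p 0.00028) and gave -0.62 ± 0.27 (SE, adjusted p 0.11) at site 2, where leaving out the dimmest cortex array gave -0.90 ± 0.18 (SE, adjusted p 0.0021). Fzd6, known for hair patterning, gave -0.33 ± 0.20 (SE, adjusted p 0.20) and -0.20 ± 0.31 (SE, adjusted p 0.76), and the first of these carries no fold, since no first-site array exceeded the control level. Fzd8, expressed in the embryonic forebrain, gave -0.18 ± 0.12 (SE, adjusted p 0.27) and 0.12 ± 0.22 (SE, adjusted p 0.81). Leaving out the dimmest cortex array gave -0.13 ± 0.14 (SE, adjusted p 0.44) for Fzd8 at site 2. Neither Fzd6 nor Fzd8 passed at either site.

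Neither co-receptor passed at either site. Lrp6 read 296, 291, 242, 308 and 323 in first-site retina, against 303, 302, 378, 250.4 and 274 in cortex. Lrp6 at site 2 read 239.5, 249 and 273 in retina, against 287, 222 and 187 in cortex. The tissues overlapped at both sites, with differences of -0.03 ± 0.10 (SE, adjusted p 0.84) and 0.16 ± 0.18 (SE, adjusted p 0.63), and a further Lrp6 probe set gave 0.39 ± 0.19 (SE, adjusted p 0.11) and -0.91 ± 0.38 (SE, adjusted p 0.10). That further probe set exceeded the control level at the first site on 2 of 5 retina and 1 of 5 cortex arrays. At site 2 it did so on no retina array and 2 of 3 cortex arrays. Lrp5, whose loss disturbs retinal vessels, exceeded the control level on none of the 16 arrays.

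The secreted antagonists held the members that were higher in retina at both sites as well as 2 that were lower. Of 7, 3 were higher and 2 lower at the first site, and 2 were higher and 2 lower at site 2. Frzb, also called Sfrp3, a soluble Frizzled-like protein first described in cartilage, read 146, 121, 131, 182 and 147 in first-site retina, against 6.95, 16.4, 13.5, 13.3 and 7.45 in cortex. Frzb at site 2 read 214, 263 and 197 in retina, against 28.6, 10.7 and 32.4 in cortex. Every retina array exceeded every cortex array of its site by a wide margin. At the first site no cortex array exceeded the control level, which put retina at least 3.87-fold higher, with a fitted difference of 2.61 ± 0.16 (SE, adjusted p 7.6e-10). That value ran from 1.73 with a pseudocount of 50 to 3.61 with a pseudocount of 1. At site 2, with 2 of 3 cortex arrays above the control level, the difference was 2.54 ± 0.18 (SE, adjusted p 3.0e-06).

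Dkk3, a divergent member of the Dickkopf family that does not act as a typical blocker of the co-receptors, read 1761, 1613, 1788, 1445 and 1717 in first-site retina, against 399, 413, 334, 343 and 448 in cortex. Dkk3 at site 2 read 2723, 2941 and 3234 in retina, against 613, 388 and 573 in cortex. All arrays were far above the control level and the tissues were widely apart. Dkk3 was higher in retina by 2.07 ± 0.09 (SE, adjusted p 1.1e-11) and by 2.51 ± 0.22 (SE, adjusted p 1.4e-05). Mueller glia, pigment epithelium and lens markers were higher in the same retina arrays for 3 of 4, 4 of 4 and 3 of 5 genes, and choroid plexus markers for 3 of 4 and 2 of 4 at the first site and site 2, and their part in the Frzb and Dkk3 differences was not tested.

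Sfrp1 and Sfrp2, which bind Wnt ligands and are expressed by embryonic neural progenitors, were lower in retina at both sites. Sfrp1 read 53.8, 68.7, 42.9, 60.6 and 17.1 in first-site retina, against 208, 191, 216, 223 and 191 in cortex. Sfrp1 at site 2 read 47.1, 15.4 and 28.6 in retina, against 155, 153 and 146 in cortex. No group overlapped, and the differences were -1.87 ± 0.19 (SE, adjusted p 5.0e-07) and -1.93 ± 0.25 (SE, adjusted p 0.00019). Sfrp2 read 122, 115, 96.03, 119 and 133 in first-site retina, against 223, 211, 191, 211 and 235 in cortex. Sfrp2 at site 2 read 98.2, 71.5 and 57.5 in retina, against 263, 459.7 and 248 in cortex. Retina was below cortex throughout, at -0.80 ± 0.10 (SE, adjusted p 4.1e-06) and -1.84 ± 0.22 (SE, adjusted p 0.00014). The 459.7 came from the dimmest cortex array, and without it the site 2 difference was -1.64 ± 0.18 (SE, adjusted p 3.6e-05). Progenitor markers and meningeal and mural markers were lower in the same retina arrays for 3 of 4 and 5 of 6 genes. Cortical neuron markers and erythroid markers were each lower for 3 of 3. The part of any of these cells in the Sfrp differences was not tested.

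Sfrp4 was higher in retina at the first site by 0.83 ± 0.22 (SE, adjusted p 0.0056), ranging from 0.47 to 1.30 over the pseudocounts, and gave 0.11 ± 0.26 (SE, adjusted p 0.89) at site 2. At the first site all 5 retina arrays but only 2 of 5 cortex arrays exceeded the control level for Sfrp4. Dkk2 gave -0.13 ± 0.20 (SE, adjusted p 0.65) and -0.52 ± 0.35 (SE, adjusted p 0.33) and passed at neither site. Dkk1, the best known blocker of Lrp5 and Lrp6, exceeded the control level on no array, so its differences carry no fold.

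**Figure D2:**
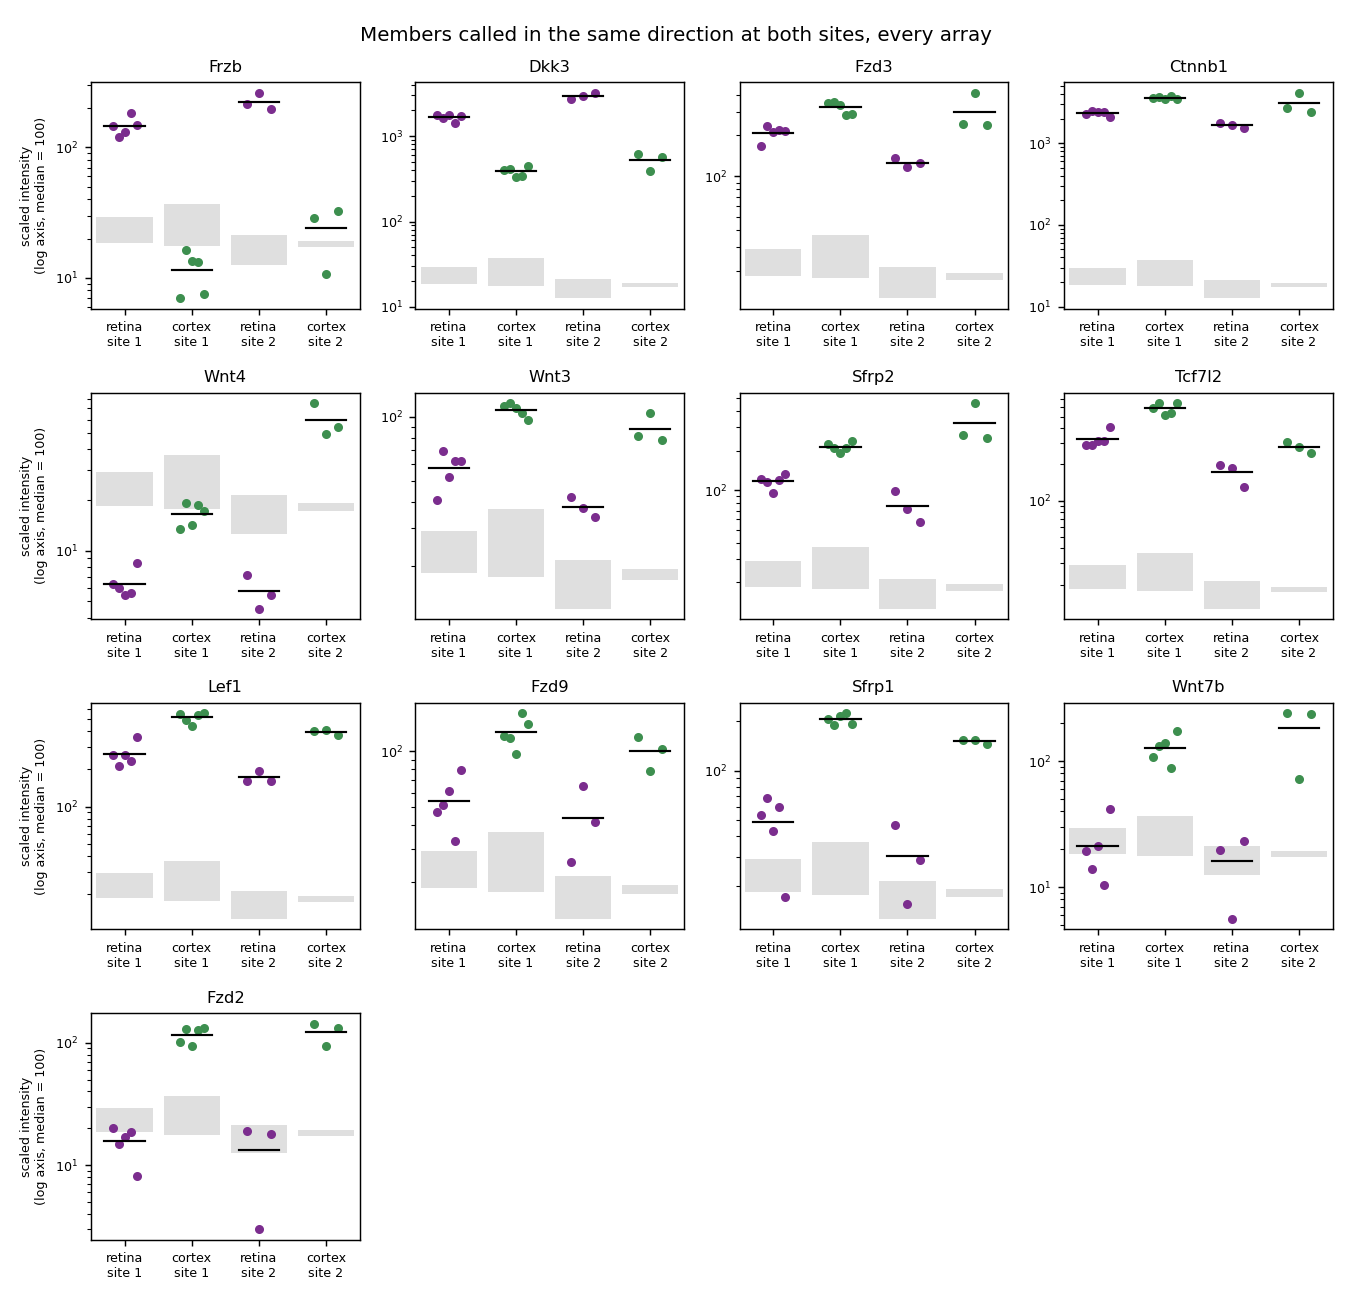
Scaled intensity (array median 100, log axis) of the 13 members called in the same direction at both sites, with 1 point per array, retina left of cortex within each site and a bar at the group mean. The grey band is the range of the control level, and the retina points lie above the cortex points of the same site for Frzb and Dkk3 and below them for the other 11.

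Inside the cell, 6 of 8 members were lower in retina at the first site and none was higher, and at site 2 Ctnnb1 was lower and Dvl1 higher. Ctnnb1, which encodes β-catenin, the pathway's effector and a part of cell junctions, read 2306, 2510.0, 2388, 2408 and 2076 in first-site retina, against 3549.9, 3672, 3495, 3821 and 3499.6 in cortex. Ctnnb1 at site 2 read 1751, 1672 and 1534 in retina, against 2729, 4164 and 2405 in cortex. The retina arrays lay below all cortex arrays, at -0.62 ± 0.07 (SE, adjusted p 1.6e-06) and -0.83 ± 0.17 (SE, adjusted p 0.0031). Apc, the scaffold of the destruction complex, read 111, 101, 118, 87.3 and 125 in first-site retina, against 224, 185, 253, 224 and 240.2 in cortex. Apc at site 2 read 157, 166 and 143 in retina, against 453, 95.6 and 360.1 in cortex, where the dimmest cortex array alone fell below the retina values. Apc was lower, at -0.96 ± 0.11 (SE, adjusted p 1.8e-06) at the first site and gave -0.70 ± 0.44 (SE, adjusted p 0.29) at site 2, or -1.35 ± 0.13 (SE, adjusted p 1.0e-05) without that array.

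Gsk3a, 1 of the kinases that phosphorylate β-catenin, had the highest mean of the intracellular probe sets. It read 5084, 5396, 4966, 6332 and 4892 in first-site retina, against 7109, 6789, 5314, 5957 and 6716 in cortex. Gsk3a at site 2 read 4296, 4826 and 4859.5 in retina, against 4337, 10569 and 4327 in cortex. The groups overlapped at both sites. The first-site difference, -0.25 ± 0.10 (SE, adjusted p 0.045), was called narrowly and lost the call in 14 of 21 alternatives, and site 2 gave -0.29 ± 0.25 (SE, adjusted p 0.48). The 10569 came from the dimmest cortex array, and without it the site 2 difference was 0.04 ± 0.11 (SE, adjusted p 0.81). Axin2, a scaffold that is itself a commonly cited feedback target of the pathway, read 78.1, 87.1, 80.7, 76.97 and 76.2 in first-site retina, against 81.8, 88.8, 69.1, 76.4 and 64.8 in cortex. Axin2 at site 2 read 81.5, 54.9 and 87.8 in retina, against 75.7, 38.7 and 68.2 in cortex. Arrays of both tissues were intermixed, and neither difference passed, at 0.06 ± 0.12 (SE, adjusted p 0.72) and 0.20 ± 0.22 (SE, adjusted p 0.61).

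Dvl1, 1 of the Dishevelled relays, read 363, 495, 485, 540.3 and 505 in first-site retina, against 751, 734, 658, 629 and 710.4 in cortex. Dvl1 at site 2 read 779.7, 799 and 801 in retina, against 599.9, 628 and 478 in cortex. Retina was thus below cortex on every array of the first site and above it on every array of site 2, with differences of -0.53 ± 0.09 (SE, adjusted p 0.00011) and 0.51 ± 0.14 (SE, adjusted p 0.018). The site 2 call was lost without any 1 of the retina arrays (adjusted p 0.063 to 0.081) and without the cortex array numbered 3 (adjusted p 0.076). Dvl2 was lower at the first site, at -0.43 ± 0.11 (SE, adjusted p 0.0035), a call lost without centring, and gave 0.18 ± 0.27 (SE, adjusted p 0.73) at site 2. Leaving out the dimmest cortex array gave -0.16 ± 0.12 (SE, adjusted p 0.29) for Dvl2 at site 2. A further Dvl2 probe set gave -0.25 ± 0.17 (SE, adjusted p 0.25) and 0.04 ± 0.29 (SE, adjusted p 0.99). At the first site it exceeded the control level on no retina array and 1 of 5 cortex arrays. Dvl3 was lower at the first site, at -0.63 ± 0.18 (SE, adjusted p 0.0077), at least 1.22-fold with 4 of 5 cortex arrays above the control level and a range from -0.96 to -0.37 over the alternatives, and gave -0.57 ± 0.28 (SE, adjusted p 0.16) at site 2. Axin1 gave -0.13 ± 0.14 (SE, adjusted p 0.48) and -0.55 ± 0.23 (SE, adjusted p 0.096), and -0.63 ± 0.22 (SE, adjusted p 0.037) at site 2 without the dimmest cortex array.

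For the 3 transcription factors, retina was lower in 2 at the first site and in all 3 at site 2. Lef1, which carries β-catenin to target genes, read 261, 211, 258, 231 and 361 in first-site retina, against 555, 495, 439.9, 544 and 558 in cortex. Lef1 at site 2 read 162, 193 and 162 in retina, against 403, 408 and 372 in cortex. No array overlapped, and Lef1 was lower, at -0.94 ± 0.12 (SE, adjusted p 4.1e-06) and -1.11 ± 0.15 (SE, adjusted p 0.00026). A further Lef1 probe set gave -1.60 ± 0.26 (SE, adjusted p 7.6e-05) and -0.95 ± 0.34 (SE, adjusted p 0.060). Tcf7l2, a close relative that can activate or repress, read 291, 290.3, 315, 315 and 409.9 in first-site retina, against 594, 648, 519.7, 537 and 649.9 in cortex. Tcf7l2 at site 2 read 198, 189 and 129 in retina, against 307, 278 and 248 in cortex. Retina stayed below cortex at each site, at -0.83 ± 0.10 (SE, adjusted p 1.5e-06) and -0.64 ± 0.19 (SE, adjusted p 0.025), and a further probe set gave -1.35 ± 0.24 (SE, adjusted p 0.00017) and -0.45 ± 0.23 (SE, adjusted p 0.19). The site 2 call of Tcf7l2 was lost without the retina array numbered 3 (adjusted p 0.12) and without the cortex array numbered 1 (adjusted p 0.083).

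Tcf7l1, mostly a repressor, read 147, 167, 162, 159 and 179 in first-site retina, against 139, 129, 169, 118 and 167 in cortex. Tcf7l1 at site 2 read 77.2, 44.7 and 87.6 in retina, against 101, 155 and 117 in cortex. The groups overlapped at the first site, at 0.17 ± 0.11 (SE, adjusted p 0.24), and retina was lower at site 2, at -0.71 ± 0.23 (SE, adjusted p 0.040). That call was lost without the retina array numbered 1 or 2 and without the cortex array numbered 2 or 3, with adjusted p from 0.055 to 0.17, and the value ran from -0.87 to -0.15 over the alternatives. A further Tcf7l1 probe set ran the other way at site 2, with 219, 186 and 203 in retina, against 130.3, 166 and 151 in cortex, and differences of 0.45 ± 0.22 (SE, adjusted p 0.12) at the first site and 0.42 ± 0.16 (SE, adjusted p 0.062) at site 2.

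**Figure D3:**
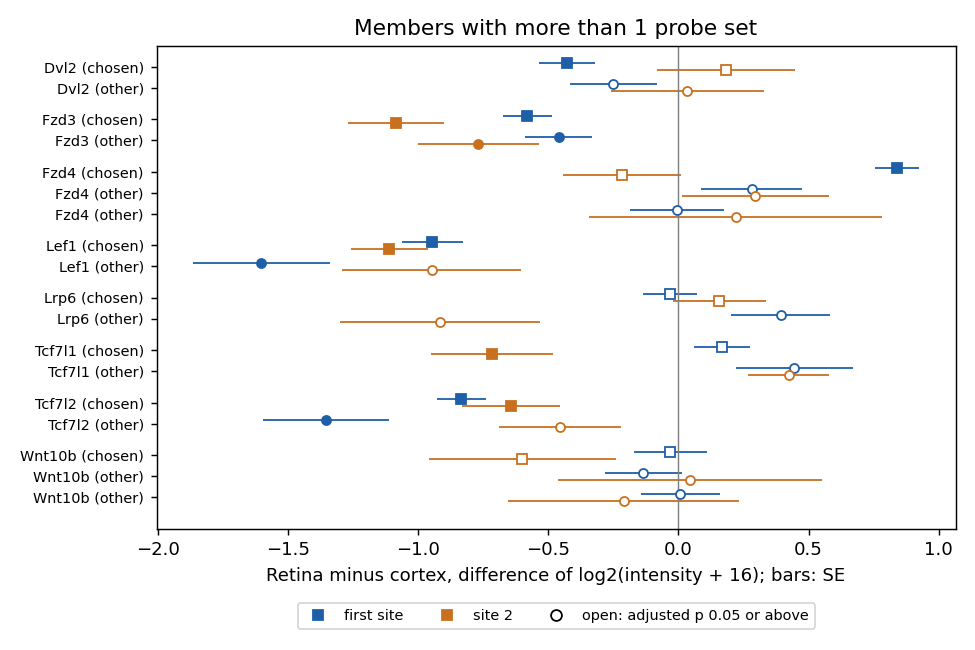
Difference between retina and cortex on the log2(intensity + 16) scale, with bars for the SE, for the 8 members held on more than 1 probe set, at the first site and at site 2, with open symbols where the adjusted p was 0.05 or above. The chosen and other probe sets of Fzd3, Lef1 and Tcf7l2 lie on the same side of 0, whereas at site 2 the chosen probe sets of Tcf7l1, Lrp6 and Fzd4 lie on the opposite side of 0 from their other probe sets, and those of Wnt10b are split. No other probe set of Lrp6 or Fzd4 exceeded the control level on every array of any group.

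Lef1 and its relatives recognise the core CTTTGA, read TCAAAG on the opposite strand. RefSeq promoters of build GRCm38.p6, running from 250 bases before to 50 bases after the gene start, were matched for 27 of the 42 members, which gave 35 promoters. The 6-letter core, on either strand, was in 7 of 35 member promoters (20.0%) and in 5257 of 32851 promoters (16%). The longer form CTTTGAT was in 2 of 35 (5.71%) and in 1225 of 32851 (3.73%). Bases from 200 to 51 before the start are shown for Frzb, higher in retina, and for Lef1, lower in retina, with the match in capitals. Dkk1, Gsk3a and Wnt5b also carry the core there and are not shown. The Frzb bases lie on the minus strand at chr2:80447447-80447596 and the Lef1 bases on the plus strand at chr3:131156094-131156243. A match describes letters and shows neither binding nor a cause.
Frzb: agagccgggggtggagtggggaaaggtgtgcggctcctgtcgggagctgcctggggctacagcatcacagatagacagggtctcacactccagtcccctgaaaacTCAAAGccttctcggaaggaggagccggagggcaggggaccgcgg
Lef1: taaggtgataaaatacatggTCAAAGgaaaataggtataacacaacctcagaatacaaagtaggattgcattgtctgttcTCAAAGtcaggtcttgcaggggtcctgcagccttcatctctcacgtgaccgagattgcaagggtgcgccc

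The difference between the tissues itself depended on the site for 5 members, 1 with a positive and 4 with a negative interaction, site 2 minus the first site. That is 11.9% of the members, where 3.36% of all probe sets passed. Dvl1 gave 1.04 ± 0.15 (SE, adjusted p 0.00047), since its tissue difference was 0.51 at site 2 and -0.53 at the first site. Fzd4 gave -1.06 ± 0.22 (SE, adjusted p 0.0085), with tissue differences of -0.22 at site 2 and 0.84 at the first site. Without the dimmest cortex array the site 2 difference of Fzd4 was 0.03 ± 0.15 (SE, adjusted p 0.90) and its interaction -0.81 ± 0.17 (SE, adjusted p 0.0072). Wnt4 gave -1.26 ± 0.27 (SE, adjusted p 0.011) and Sfrp2 -1.04 ± 0.22 (SE, adjusted p 0.012), both with a more negative fitted difference at site 2. Without the dimmest cortex array the Sfrp2 interaction was -0.84 ± 0.20 (SE, adjusted p 0.018). The Wnt4 value ran from -1.91 to -0.74 over the alternatives and lost its call with a pseudocount of 50 (adjusted p 0.075), and first-site Wnt4 carried no fold. Tcf7l1 gave -0.88 ± 0.24 (SE, adjusted p 0.043), and its further probe set gave -0.02 ± 0.33 (SE, adjusted p 0.99). The interaction of Tcf7l1 was lost on leaving out 12 of the 16 arrays 1 at a time, and that of Sfrp2 without the site 2 retina array numbered 3 (adjusted p 0.052). The call of Fzd4 was lost with the mean of all its probe sets, at -0.27 (adjusted p 0.70). That mean takes in the other Fzd4 probe sets, which exceeded the control level on few arrays or none. Without centring no interaction passed, although the values were 0.90 for Dvl1, -1.19 for Fzd4, -1.40 for Wnt4, -1.18 for Sfrp2 and -1.02 for Tcf7l1.

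**Figure D4:**
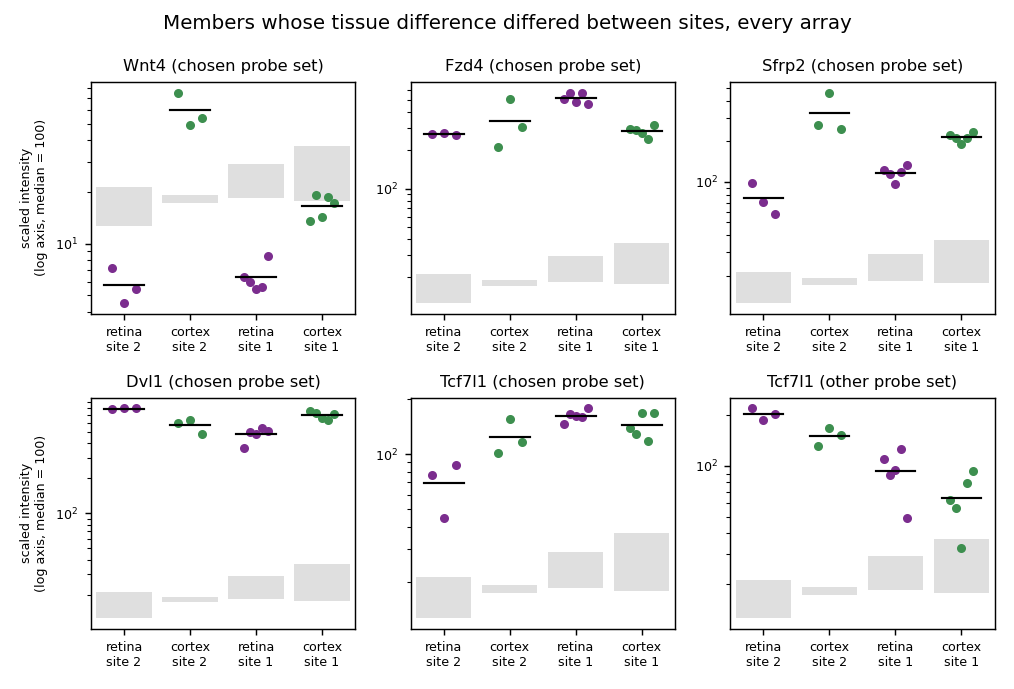
Scaled intensity (array median 100, log axis) of the 5 members whose tissue difference depended on the site, and of the further Tcf7l1 probe set, with 1 point per array and a bar at the group mean. Retina lies left of cortex within each site, Dvl1 retina arrays lie above cortex at site 2 and below it at the first site, and the grey band is the range of the control level.

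Between sites, retina aliquots, taken to be of the same pool, differed for 16 members (38.1%), 5 higher and 11 lower at site 2. Of all probe sets 35.7% passed, 23.2% higher and 12.5% lower. The cortex aliquots differed for 6, 4 higher and 2 lower (14.3%), where 16.7% of all probe sets passed, 10.3% higher and 6.4% lower. The member medians were -0.17 for retina and -0.12 for cortex, and those of all probe sets were 0.04 and 0.01. The chosen probe sets of all 3 transcription factors were lower at site 2 in retina, with -0.87 ± 0.14 (SE, adjusted p 7.7e-05) for Tcf7l2, -1.10 ± 0.17 (SE, adjusted p 5.0e-05) for Tcf7l1 and -0.56 ± 0.14 (SE, adjusted p 0.0030) for Lef1. The further Tcf7l1 probe set was higher at site 2 in retina, at 1.05 ± 0.23 (SE, adjusted p 0.0015), and averaging a gene's probe sets gave -0.03 (adjusted p 0.94) for Tcf7l1 and -0.40 (adjusted p 0.067) for Lef1. In cortex Tcf7l2 was lower as well, at -1.06 ± 0.14 (SE, adjusted p 5.1e-05). Wnt4 was higher at site 2 in cortex, at 1.26 ± 0.19 (SE, adjusted p 0.00021), the 1 cortex call kept under every alternative. That value ran from 0.76 to 1.78 over the alternatives, and 1 of 5 first-site cortex arrays exceeded the control level. In retina Wnt4 gave -0.0014 ± 0.19 (SE, adjusted p 0.998), with no array above the control level. Wnt1 was lower at site 2 in both tissues, at -0.55 ± 0.17 (SE, adjusted p 0.017) in retina and -0.71 ± 0.17 (SE, adjusted p 0.0083) in cortex. Its retina call was lost without the site 2 retina array numbered 1 or 3 (adjusted p 0.081 and 0.087), and its cortex call without the site 2 cortex array numbered 1 (adjusted p 0.053). Dkk3 and Dvl1 were higher at site 2 in retina, by 0.82 ± 0.15 (SE, adjusted p 0.00035) and 0.72 ± 0.11 (SE, adjusted p 5.0e-05). Without centring, 0 retina and 1 cortex difference passed, and without the dimmest cortex array 18 cortex differences did. The 18 include Wnt8a, Wnt11 and Lrp5, which exceeded the control level on no array.

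Other genes of the pathway were taken from a list of 109, of which 75 were on the arrays. In retina 16 were higher and 35 lower at the first site, and 12 were higher and 27 lower at site 2. Their called shares were 68.0% and 52.0%, against 47.1% and 32.5% of all probe sets, and their medians were -0.24 and -0.22, against -0.05 and -0.02. Of the 75, 10 were higher and 24 lower at both sites (13.3% and 32%), where all probe sets gave 14.4% and 14.1%, and none was called in opposite directions. By branch at the first site, planar polarity and calcium genes gave 3 higher and 11 lower of 16, nuclear genes 4 and 7 of 14, destruction complex genes and kinases 4 and 8 of 20, commonly cited targets 3 and 5 of 14, surface genes 1 and 2 of 7, and secretion and ligand-like genes 1 and 2 of 4.

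The named genes higher in retina at both sites had these means over 5 arrays at the first site (± SD). Ccn4, a secreted matrix protein and cited target, had 300.1 ± 42.5 in retina and 35.5 ± 5.03 in cortex and differences of 2.65 ± 0.12 (SE, adjusted p 2.5e-11) and 3.22 ± 0.24 (SE, adjusted p 4.5e-06). Lgr5, the R-spondin receptor of intestinal stem cells, had 83.6 ± 25.04 in retina and 3.25 ± 1.15 in cortex and was at least 2.33-fold higher, with 2.41 ± 0.17 (SE, adjusted p 6.3e-09) and, at site 2, at least 1.68-fold, with 1.63 ± 0.40 (SE, adjusted p 0.0099). Its cortex arrays lay at or under the control level at both sites. Nlk, a kinase that phosphorylates Lef1 and Tcf7-family proteins, had 789.7 ± 117 in retina and 173 ± 20.1 in cortex and differences of 2.10 ± 0.11 (SE, adjusted p 6.1e-11) and 1.96 ± 0.18 (SE, adjusted p 1.7e-05). Ctbp2, a corepressor gene that also encodes the ribbon synapse protein RIBEYE of photoreceptors, had 2034 ± 243 in retina and 503 ± 36.2 in cortex and differences of 1.99 ± 0.09 (SE, adjusted p 1.6e-11) and 1.46 ± 0.30 (SE, adjusted p 0.0035). Camk2d, a calcium-dependent kinase subunit, had 163 ± 26.3 in retina and 31.5 ± 6.25 in cortex and differences of 1.93 ± 0.14 (SE, adjusted p 4.7e-09) and 2.38 ± 0.22 (SE, adjusted p 2.1e-05).

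On the lower side, Myc, the growth regulator and a cited target, had 6.10 ± 3.20 in retina and 147 ± 14.2 in cortex. Its retina arrays did not exceed the control level, which put it at least 4.21-fold lower at the first site and 4.82-fold at site 2, with -3.02 ± 0.17 (SE, adjusted p 2.6e-10) and -2.61 ± 0.24 (SE, adjusted p 1.9e-05). Id2, which blocks DNA binding by helix-loop-helix factors, had 436 ± 64.9 in retina and 3200.4 ± 272 in cortex and was lower, at -2.83 ± 0.09 (SE, adjusted p 3.8e-13) and -2.92 ± 0.24 (SE, adjusted p 9.8e-06). Tcf4, here the basic helix-loop-helix gene and not the Tcf7l2 gene that shares that alias, had 726 ± 28.3 in retina and 3009 ± 221 in cortex and was lower, at -2.02 ± 0.07 (SE, adjusted p 9.4e-13) and -2.25 ± 0.23 (SE, adjusted p 4.1e-05). Celsr1, a cadherin of planar polarity, was at least 1.37-fold lower at the first site and 1.56-fold at site 2, with 4 of 5 and 3 of 3 cortex arrays above the control level. Camk2b had 871 ± 80.7 in retina and 2382 ± 229 in cortex and was lower, at -1.43 ± 0.08 (SE, adjusted p 2.7e-10) and -1.38 ± 0.22 (SE, adjusted p 0.00072).

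Ndp, which encodes norrin, the Fzd4 ligand that is not a Wnt, had a mean of 202 ± 27.6 in retina and 134 ± 19.2 in cortex over 5 first-site arrays per tissue (± SD) and was higher in retina by 0.55 ± 0.12 (SE, adjusted p 0.00086). At site 2 it had 145 ± 41.99 in retina and 142 ± 37.7 in cortex over 3 arrays per tissue, with 0.04 ± 0.22 (SE, adjusted p 0.97). Ccnd1, the cell cycle gene and cited target, had 372 ± 20.4 in retina and 422 ± 24.7 in cortex on the first-site arrays and passed at neither site, at -0.16 ± 0.07 (SE, adjusted p 0.062) and -0.18 ± 0.16 (SE, adjusted p 0.49).

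**Figure D5:**
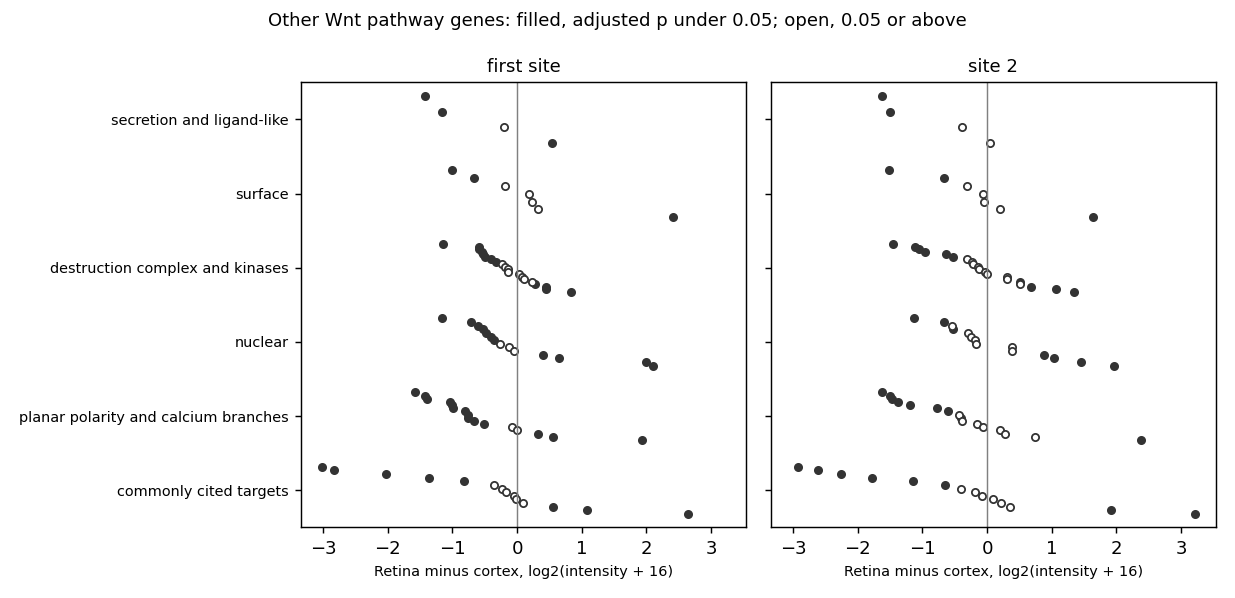
Difference between retina and cortex on the log2(intensity + 16) scale for the 75 other pathway genes, 1 point per gene, arranged by branch, at the first site and at site 2, filled where the adjusted p was under 0.05. Ccn4, at 2.65 and 3.22, lies farthest to the right, and Myc and Id2, between -2.61 and -3.02, lie farthest to the left.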

How the data were processed

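Total RNA, taken to be of 1 retina pool and 1 cortex pool, was measured on 16 arrays at 2 sites, in 4 groups of 5 or 3 arrays. The authors deposited linear intensities, 1 per probe set and array, already summarised over probes. How the summarisation, background and scaling were done is not stated in the labels. Gene symbols came from the platform annotation, updated through the RefSeq table of GRCm38.p6. Of 12422 probe sets tested, after 66 controls were left out, 10833 had 1 symbol, 396 had several and 1193 are unnamed here.

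Values were turned into log2(intensity + 16), centred on each array's median and tested two-sided in R 4.3.3 by limma 3.58.1, using lmFit and eBayes with an intensity trend. Each site was fitted alone, and site differences and the interaction came from 1 fit over all 16 arrays. The adjusted p was Benjamini-Hochberg over all probe sets, at 0.05. Where no array of the dimmer group exceeded the control level, the fold is a lower bound with dim values raised to that level. This floor was chosen after the data were seen, and its controls are taken to have no added target. A bound uses the same log2(intensity + 16) scale.

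Values on every array are given for members called in the same direction at both sites, for members with an interaction and for the brightest probe set of each role. From the other pathway genes, up to 5 per direction with the largest first-site difference among those called at both sites are named, with Ndp, Ccnd1 and Myc in any case. Other genes given array by array were chosen after their values were seen. The members and the lists were chosen with earlier results of these data known. The alternatives tried were a pseudocount of 1 or 50, uncentred arrays, quantile normalization, scaling before the pseudocount, eBayes without the trend, replicate numbers as a block, 1 fit over all arrays, only probe sets above the median signal, averaging a gene's probe sets, the probe set chosen by mean log2 value (added after the data were seen) and leaving out each array in turn. The procedure was tested on simulated data.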

Additional observations from a re-analysis of the deposited data

Results flagged for a closer look

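In groups of 5 arrays, the gap between an extreme array and its nearest neighbour was divided by the group's range and compared with Dixon's 95% critical value. Chance marks about 1 in 20 groups, and 6 of 84 were marked. In first-site retina, the array numbered 5 was high for Fzd1, at 45.3 scaled intensity with the nearest array at 30.03 (gap 0.799 of the range), and for Tcf7l2, at 409.9 with the nearest at 315 (0.793). The same array was high for Dkk1, at 5.78 (0.756), under the control level. Dkk2 was high on the first-site retina array numbered 1, at 30.4 with the nearest at 15.4 (0.718). In first-site cortex, Dkk1 was high on the array numbered 2, at 18.1 with the nearest at 3.698 (0.885), and Axin1 was low on the array numbered 3, at 213 with the nearest at 292 (0.716).

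The tissue difference differed between the sites by limma's interaction test for 5 members, given as site 2 minus the first site. The values were 1.04 for Dvl1 (adjusted p 0.00047), -1.06 for Fzd4 (adjusted p 0.0085), -1.26 for Wnt4 (adjusted p 0.011), -1.04 for Sfrp2 (adjusted p 0.012) and -0.88 for Tcf7l1 (adjusted p 0.043).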

How the results depend on the processing

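No called member difference changed sign under any alternative run. Of 24 first-site calls, 21 were kept under every alternative that tested them, as were 5 of 16 at site 2 (Wnt4, Wnt7b, Fzd2, Frzb and Dkk3), 1 of 6 between the sites in cortex, none of 16 between the sites in retina and none of 5 interactions. Without centring, 6 members were called at site 2 (2 higher, 4 lower), 10 other pathway genes at site 2 (4 higher, 6 lower), 0 members for the interaction, 0 between sites in retina and 1 in cortex. That step alone moved the median of all probe sets by under 0.14. Uncentred values also keep differences in array brightness, with deposited medians of 139, 45.7 and 216 on the site 2 cortex arrays. The part of these brightness differences in the lost calls was not tested. Probe sets above the median signal held fewer members and gave 12 calls at the first site, 9 at site 2 and 10 between sites in retina. The interaction gave 3 calls with a pseudocount of 50 and 3 when a gene's probe sets were averaged.

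Leaving out 1 array at a time gave 23 to 24 member calls at the first site, 13 to 23 at site 2, 4 to 6 for the interaction, 12 to 16 between sites in retina and 5 to 18 in cortex. Other pathway genes ranged from 50 to 52 at the first site and from 29 to 51 at site 2. The 23 and the 18 came without the site 2 cortex array numbered 2, the dimmest, where the site 2 calls were 7 higher and 16 lower.

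Deviations of same-numbered retina and cortex arrays correlated from -0.187 to 0.0802, which cannot show whether such arrays were handled together. With a replicate block, 23 members were called at the first site, 18 at site 2, 4 for the interaction, and 14 (retina) and 5 (cortex) between sites, and 53 and 41 other pathway genes. Of 5 first-site numbers 2 correlated best with their own, and 1 of 3 at site 2. Dim probe sets limit fold estimates, and nothing measures spread between animals.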
